A study of Drosophila melanogaster with 2 samples.

Results

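The enterocytes described here were cells of the adult fly midgut in which the sum of 4 transcripts made up an unusually large share of the RNA. These were *Ser8*, *CG12057*, *CG3106* and *Crys*, and a cell could be taken on 1 of them alone. The cells numbered 471 among 10564 barcodes, 333 from *esg[ts]*/+ intestines and 138 from *esg[ts]/D30A* intestines. A cell was taken when it had at least 200 genes, at most 25% of its unique molecular identifiers (UMIs, each standing for 1 captured transcript) on mitochondrial genes, fewer than 3 UMIs of *esg*, *N* and *Dl* together, fewer than 3 UMIs of *pros*, and at least 3 UMIs over the 4 markers. The marker share of its UMIs also had to reach 3 times the share pooled over all barcodes that passed the gene and mitochondrial limits, which was 766 UMIs per 1000000. The markers therefore chose the cells, and their levels in these cells are a description.

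Enterocytes are the absorptive cells of the intestinal epithelium. They secrete proteases, glycosidases and lipases into the lumen, take up the products, and differ along the length of the midgut in the enzymes that they make. *Ser8* encodes a trypsin-like serine protease, and *Crys* encodes a crystallin first known from the lens of the fly eye. *CG12057* and *CG3106* are known by number only. In the BDGP6.54 annotation, *CG12057* (FBgn0030098) lies on chromosome X from 9191657 to 9192548 and *CG3106* (FBgn0030148) on X from 9659095 to 9662903. *Crys* (FBgn0005664) lies on 2L from 11944129 to 11947131, and *Ser8* (FBgn0019928) on 2R from 13434207 to 13435045. All are annotated as protein-coding, and no pair of them is adjacent.

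Each genotype was represented by 1 droplet library made from 27 pooled guts of virgin females, which had grown up at 18 °C and then spent 10 days at 29 °C. Control flies were w; esgGal4, tubGAL80[ts], UASGFP/+;+/+, and experimental flies were the same with UAS-ImdD30A/+ in place of the final +/+. Both groups thus shared the progenitor driver, the temperature-sensitive repressor and GFP, and the experimental flies alone expressed ImdD30A, a form of the immune adaptor Imd that blocks its pathway. The driver acts in intestinal progenitors, so the transgene was not directed to the enterocytes described here. Guts were dissociated with elastase at 1 mg/ml, and live cells were taken from a density gradient. With 1 library per genotype, genotype and library cannot be told apart, no test was possible, and all intervals are at 95% and cover counting error only.

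The libraries differed before any cell was chosen. The control library held 30383272 UMIs in 4242 barcodes and the *esg[ts]/D30A* library 53275921 UMIs in 6322 barcodes, and 3.39% and 31.9% of barcodes were above the mitochondrial limit. After both limits 4098 and 4301 barcodes were kept, of which 3461 and 3520 were within the limits on progenitor and *pros* transcripts. Within those limits, the barcodes that were not members are called other cells, and numbered 3128 and 3382. A total of 132 barcode sequences occurred in both libraries, and 5 *esg[ts]*/+ members and 1 *esg[ts]/D30A* member carried one of them.

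Members made up 8.13% of kept barcodes in *esg[ts]*/+ (exact interval 7.31 to 9.0) and 3.21% in *esg[ts]/D30A* (2.70 to 3.78), a difference of -4.92 percentage points (-5.92 to -3.94). Most of this difference lay in cells with few marker UMIs. Cells with 3 to 9 marker UMIs numbered 249 among control cells and 65 in *esg[ts]/D30A*, whereas those with 10 or more numbered 84 and 73, or 2.05% and 1.70% of kept barcodes. The difference among cells with 10 or more was -0.35 points (-0.94 to 0.23), an interval that includes 0. When *CG12057* was left out of the marker sum, the direction turned, with 61 cells in *esg[ts]*/+, 155 in *esg[ts]/D30A* and a difference of 2.12 points. No direction of the share is therefore read from these libraries.

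The members were of unequal depth. Their median depth was 929 UMIs in the control library and 2418.5 in *esg[ts]/D30A*, beside 1001 and 1274 in other cells. Cells with 10 or more marker UMIs had medians of 2693.5 and 11374 UMIs, and those with 3 to 9 had 806 and 1048. The deeper cells held 80.9% and 94.4% of all member UMIs, so that values summed over members mostly describe them. At the threshold, the lowest member had 3.01 times the pooled share in *esg[ts]*/+ and 3.06 times in *esg[ts]/D30A*, and the highest cell left out with 3 or more marker UMIs had 2.99 and 2.98 times. Exactly 3 marker UMIs were found in 145 and 26 members. A further 230 and 26 cells exceeded the fold with only 2 UMIs and were left out.

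**Figure D1:**
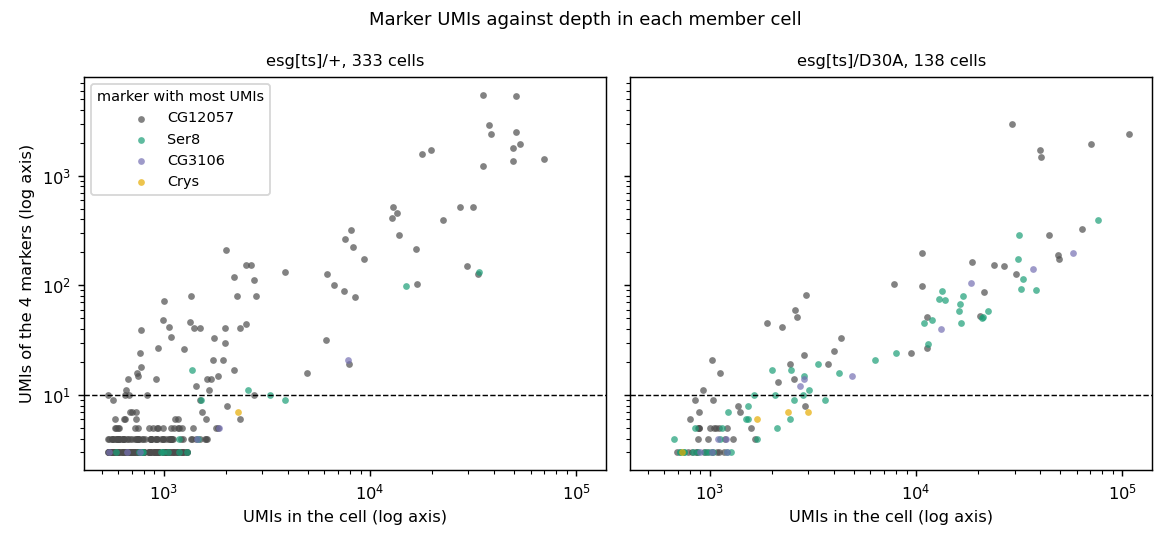
Each point is 1 member, placed by its UMIs (horizontal, log axis) and its UMIs of the 4 markers (vertical, log axis) and coloured by the marker with most UMIs; the dashed line is at 10 marker UMIs. The 333 *esg[ts]*/+ members crowd at 3 to 9 marker UMIs and are mostly led by *CG12057*, while the 138 *esg[ts]/D30A* members include many led by *Ser8*.

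*CG12057* gave most of the marker UMIs and had UMIs in the most cells outside the members. In members its level was 31538 UMIs per 1000000 UMIs (CPM; interval 31218 to 31860) in *esg[ts]*/+ and 8693 CPM (8541 to 8847) in *esg[ts]/D30A*, beside 123 and 25.2 CPM in other cells. These transcripts were concentrated in a handful of cells. In *esg[ts]*/+, 12 cells with at least 1000 *CG12057* UMIs held 79.0% of the members' total, and in *esg[ts]/D30A* 5 such cells held 78.7%. The highest single cells held 5445 and 2897 UMIs.

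A low level of *CG12057* was also found outside these cells. At least 1 UMI was present in 52.9% of other cells and in 64.7% of progenitor barcodes (median depth 11631 UMIs) of *esg[ts]*/+, and in 15.9% of other cells and 17.8% of progenitor barcodes (19073.5 UMIs) of *esg[ts]/D30A*. After each cell had been thinned to 650 UMIs, these shares were 29.8% and 9.33% in *esg[ts]*/+ and 7.48% and 1.52% in *esg[ts]/D30A*, beside 93.3% and 57.2% of members (97.3% and 64.5% before thinning). Thinning left out 65 members and 641 other cells of *esg[ts]*/+ as too shallow, and none of *esg[ts]/D30A*. Progenitor barcodes held 90.1 and 9.75 CPM, and *pros* barcodes 95.7 and 9.45 CPM. The library with more members thus had more *CG12057* in cells of other types as well, and the part of this in the number of members with 3 to 9 marker UMIs was not tested.

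The other 3 markers had UMIs in fewer members of *esg[ts]*/+ than of *esg[ts]/D30A* by share. *Ser8* stood at 573 CPM (531 to 618) in *esg[ts]*/+ members and 1602 CPM (1537 to 1669) in *esg[ts]/D30A* members, against 10.8 and 29.3 CPM in other cells, and a single control cell gave 39.1% of its UMIs. *CG3106* stood at 177 and 711 CPM, against 16.7 and 34.4 CPM. *Crys* stood at 91.7 CPM (75.2 to 111) and 240 CPM (215 to 267), against 5.76 and 18.2 CPM. A *Ser8* UMI was found in 91 of 333 members of *esg[ts]*/+ and in 99 of 138 of *esg[ts]/D30A*, and a *Crys* UMI in 35 and 57. The name of the cells by *Ser8* and *Crys* was therefore borne out mainly in *esg[ts]/D30A*. In *esg[ts]*/+, 206 members had UMIs of 1 marker only, and cells led by *CG12057* is the closer description of them.

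**Figure D2:**
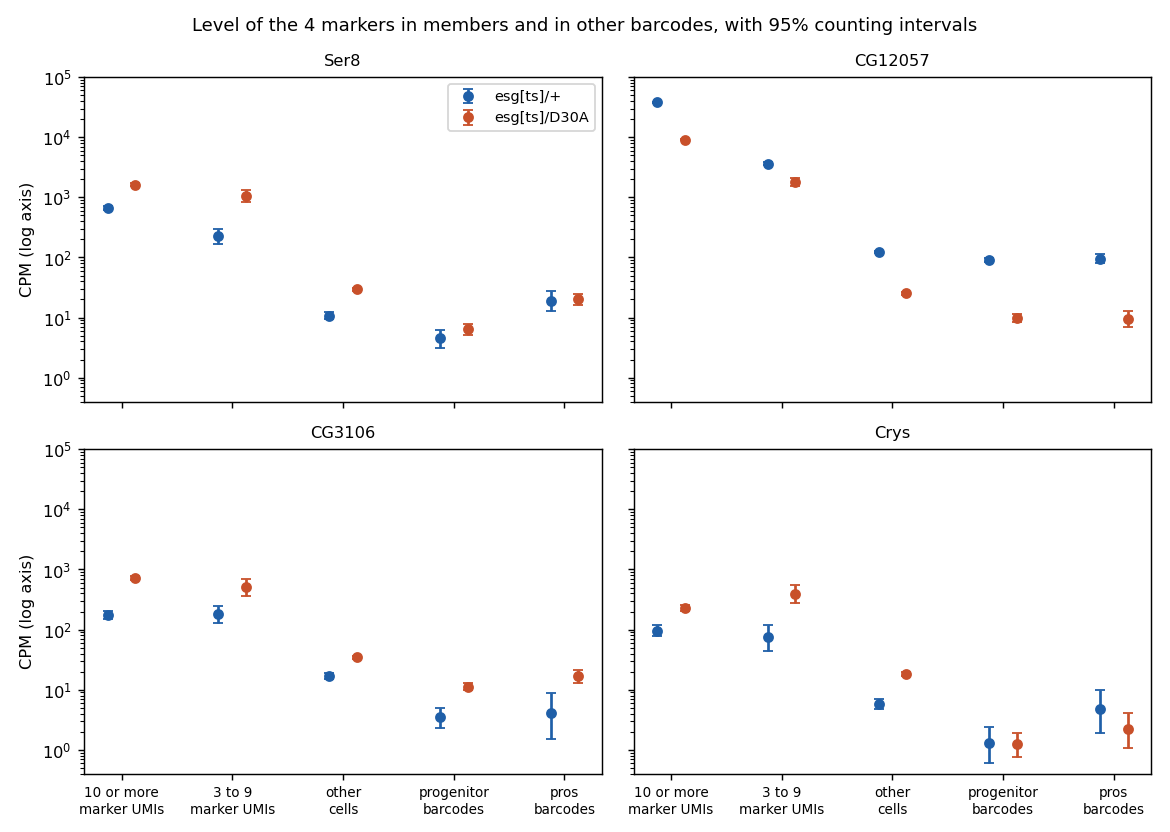
Level of each marker in CPM (log axis, 1 panel per gene) in members with 10 or more marker UMIs, members with 3 to 9, other cells, progenitor barcodes and *pros* barcodes; points are sums over cells, bars are exact 95% counting intervals and colours are libraries. *CG12057* is higher in *esg[ts]*/+ in every group, progenitor barcodes included (90.1 against 9.75 CPM).

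Since each marker helped to choose the cells, each was also measured in cells chosen on the other 3. The left-out marker had no part in that choice of cells. The markers as a set, however, had been picked with earlier results of these data known. The ratios are therefore descriptions, and whether the markers go together was not tested independently. All markers were higher in cells chosen on the other 3 than in the remaining cells of both libraries. *Ser8* was 28.4-fold higher (interval 24.8 to 32.6) in *esg[ts]*/+, where 1 cell gave 48.4% of it, and 16.6-fold (15.4 to 17.9) in *esg[ts]/D30A*. *Crys* was 11.7-fold (8.82 to 15.3) and 8.87-fold (7.64 to 10.3) higher, and *CG3106* 7.36-fold (6.09 to 8.87) and 10.8-fold (9.81 to 11.9). *CG12057* was 20.004-fold and 28.4-fold higher by summed UMIs. Its presence did not follow in *esg[ts]*/+, where it had a UMI in 57.4% of the 61 chosen cells (44.1 to 70.0) and in 57.2% of the rest, and where a single cell gave 34.4% of them. In *esg[ts]/D30A* the same shares were 32.9% (25.6 to 40.9) and 17.1%. The cells chosen without *CG12057* were deeper than the rest, with medians of 6153 against 979 UMIs and of 7955 against 1248.

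The members were checked against marker genes of gut cell types. All 10 enterocyte markers were detected in members. Their sum was 51856 CPM in control members and 85384 CPM in *esg[ts]/D30A* members, beside 79329 and 51553 CPM in other cells. Members with 3 to 9 marker UMIs had 75572 and 65678 CPM. Progenitor barcodes had 8199 and 5025 CPM and *pros* barcodes 35888 and 24267 CPM. All 10 were detected in those barcodes too, so detection alone did not mark the members. The brush-border myosin gene *Myo31DF* stood at 77.3 and 104 CPM, close to 85.6 and 124 CPM in other cells. The 10 progenitor markers summed to 49.2 and 44.5 CPM in members, with *spdo* at 0 in both libraries and *mira* at 0 in *esg[ts]*/+. Other cells, to which the same limits applied, had 89.0 and 83.7 CPM. In members with 3 to 9 marker UMIs the sums were above those of other cells, at 178 and 236 CPM. Progenitor barcodes had 1847 and 1752 CPM, a gap partly set by the choice, since *esg*, *N* and *Dl* are on the list. The 13 enteroendocrine markers summed to 488 and 94.6 CPM, against 66621 and 55788 CPM in *pros* barcodes, with *Dh31* at 0 in *esg[ts]*/+. Members with 3 to 9 marker UMIs had 1405 and 522 CPM of these genes, beside 690 and 448 CPM in other cells. Their progenitor and enteroendocrine sums were thus above those of other cells, and the name enterocytes is less certain for them.

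Markers of the acid-secreting copper cells were lower in members than in other cells. The 6 genes summed to 940 CPM in *esg[ts]*/+ members and 173 CPM in *esg[ts]/D30A* members, beside 10531 and 10130 CPM in other cells. In members with 3 to 9 marker UMIs the sums were 4261 and 1131 CPM. *Vha16-5* and *Vha36-3* were at 0 in members of both libraries. Neither zero sets members apart, since both genes were also at 0 in other cells of *esg[ts]/D30A* and *Vha16-5* in those of *esg[ts]*/+. *lab*, the homeobox gene that specifies copper cells, had 1 UMI in *esg[ts]*/+ members and none in *esg[ts]/D30A* members, at least 17.9-fold below the 37.3 CPM of other cells with 3 counts as the limit. The 3 cardia markers summed to 604 and 210 CPM, against 4487 and 1758 CPM in other cells, with *pgant4* at 0 in *esg[ts]*/+ members. Members with 3 to 9 marker UMIs had 2113 and 895 CPM of the cardia markers. All 8 visceral muscle markers and all 6 blood cell markers were at 0 in *esg[ts]*/+ members. In *esg[ts]/D30A* members, 5 of the 8 muscle markers and all 6 blood cell markers were at 0, and the muscle sum was 2.78 CPM. The sums for fat body, trachea, neurons and Malpighian tubule lay between 0 and 7.64 CPM.

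Among 7144 genes with at least 20 UMIs, 189 (2.65%) were at least 2-fold higher in members than in other cells of both libraries and 718 (10.1%) were at most 0.5-fold. Measured from the median of all genes (log2 -0.13 and -0.36), the split was 283 higher and 566 lower. With means over cells in place of summed UMIs, 80 genes were higher, and only 47 of the 189 were among them. With only the members of 10 or more marker UMIs, and all remaining cells as the comparison, the numbers were 211 (2.95%) and 1057 (14.8%). The 15 genes with the highest ratios held 3 of the markers and 12 other genes, and all 15 were at least 2-fold higher with 10 or more marker UMIs as well.

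Beside the markers, the genes with the highest ratios, by the lower of both libraries, were *CG11911* and a trio of neighbours on 2L. *CG8997* had 58504 CPM in *esg[ts]*/+ members and 75754 CPM in *esg[ts]/D30A* members, against 2241 and 5675 CPM in other cells. The log2 ratios were 4.71 (4.69 to 4.72) and 3.74 (3.73 to 3.75). *CG7953* had 31911 and 43052 CPM in members and log2 ratios of 4.61 and 3.54, and *CG7916* had 16555 and 21644 CPM and ratios of 4.72 and 3.94. In BDGP6.54, *CG8997* (FBgn0028920) runs from 13843915 to 13845325 on the minus strand, *CG7916* (FBgn0028534) from 13846752 to 13847799 and *CG7953* (FBgn0028533) from 13847925 to 13849223, both on the plus strand. The gaps are 1427 and 126 bp, with no other protein-coding gene between them.

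The level of *CG8997* varied widely among the deeper members. In cells with 10 or more marker UMIs, *CG8997* ranged from 201 to 141039 CPM with a median of 55227 in *esg[ts]*/+, and from 3211 to 147475 with a median of 72710 in *esg[ts]/D30A*. The lowest control cell was thus below the 2241 CPM of other cells. Every one of these cells had a UMI of it, but so did 93.0% and 95.2% of other cells and 98.4% and 98.1% of progenitor barcodes, so that its presence alone did not mark the members. In members with 3 to 9 marker UMIs, *CG8997* was lower, at 13089 CPM in the control library and 31465 CPM in *esg[ts]/D30A*. It played no part in the choice of cells. By its summed level the cells with few marker UMIs stood between the deeper members (69219 and 78381 CPM) and other cells. The highest of these cells in *esg[ts]*/+ held 147 of their 2943 UMIs of it, so the sum does not describe each cell.

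Secreted digestive enzymes made up most of the remaining high genes. The Jonah serine protease gene *Jon25Biii* had 23558 CPM in *esg[ts]*/+ members and 66651 CPM in *esg[ts]/D30A* members, with log2 ratios to other cells of 2.66 (2.64 to 2.68) and 3.18 (3.17 to 3.19). *CG10472*, of the same protease superfamily, had 13779 and 20647 CPM and ratios of 2.52 and 3.42. *CG11911* had 4538 and 9701 CPM and ratios of 4.11 and 4.21, and *CG17571* had 1568 and 6846 CPM and ratios of 2.54 and 3.54. *mag*, which encodes the secreted lipase Magro, had 1658 and 1848 CPM, with nearly equal ratios of 3.13 (3.05 to 3.21) and 3.10 (3.03 to 3.16).

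Lipid-related genes were among the others. *Npc2d*, of the Niemann-Pick C2 family of sterol-binding proteins, had 371 and 966 CPM in members and log2 ratios of 2.48 and 2.99. *Gba1a*, which encodes a glucocerebrosidase, had 755 and 1100 CPM and ratios of 2.91 and 2.25. *Ag5r2*, of the antigen 5-related secreted proteins, had ratios of 2.81 and 3.34, and *CG2772* of 2.28 and 2.55. Of these 12 genes, none had more than 24.7% of its member UMIs in 1 cell, the value for *Ag5r2* in *esg[ts]/D30A*.

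**Figure D3:**
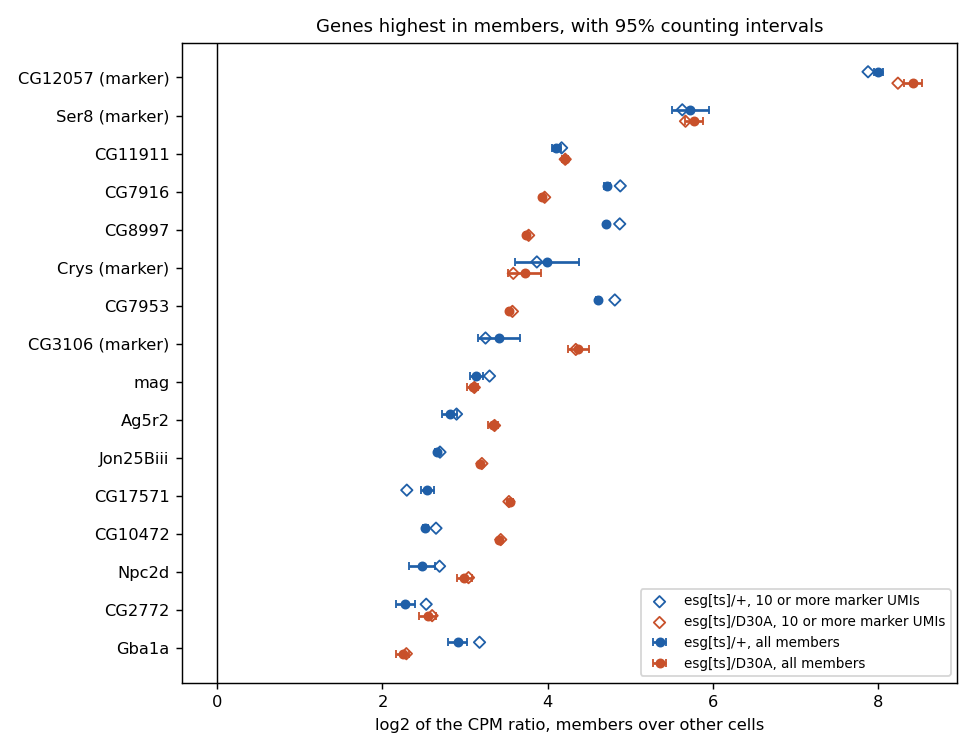
Log2 of the CPM ratio of members over other cells (horizontal) for the 15 highest genes and *Crys*, with filled points and exact 95% counting intervals for all members and open diamonds for members with 10 or more marker UMIs; colours are libraries. Every gene is above 0 in both libraries, and *CG8997*, *CG7916* and *CG7953* have higher ratios in *esg[ts]*/+.

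The digestive gene lists held genes of both directions, and their counts stand beside 2.65% higher and 10.1% lower over all genes. Of 29 serine protease genes tested, 7 were higher in members of both libraries and 9 were lower, with median log2 ratios of 0.22 in the control library and 0.92 in *esg[ts]/D30A*, beside -0.13 and -0.36 over all genes. *betaTry* was lower, with 5062 against 22521 CPM of other cells in *esg[ts]*/+ and 2836 against 13351 CPM in *esg[ts]/D30A*. Reads of the near-identical trypsin and Jonah copies could have been split or lost between them, so single members of these families are uncertain. Of 8 zinc carboxypeptidase genes, 2 were higher and 4 lower. *CG7025* had ratios of 1.69 and 1.60, and *CG12374* of -1.52 and -3.20.

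Read against the same 2.65% and 10.1%, 3 of 21 sugar-digesting and mannosidase genes were higher and 1 was lower. The maltase genes *Mal-A3* and *Mal-A4* had ratios of 1.81 and 1.71 in *esg[ts]*/+ and of 1.81 and 1.78 in *esg[ts]/D30A*. Of 18 lipid-handling genes, 4 were higher and 4 lower. The mucin and peritrophic matrix list had 0 of 10 genes higher and 5 lower, with medians of -1.23 and -2.89, and *Peritrophin-15a* stood at 580 and 193 CPM against 4370 and 1669 CPM in other cells. Of 10 genes for peptidoglycan recognition proteins, 1 was higher and 2 were lower, and of 12 metal-handling genes 1 and 2.

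Of 12 regional transcription factor genes, 0 were higher and 4 lower. *lab* was among the lowest genes of all, together with *Nplp2*, *CG8299*, *CG43066* and *CG9932*. *Nplp2*, a neuropeptide-like precursor gene, had 3.40 and 1.39 CPM in members against 62.8 and 57.0 CPM in other cells. *nub*, which enterocytes express, was at 131 and 215 CPM against 91.2 and 154. None of 83 ribosomal protein genes and none of 11 heat shock genes passed the 2-fold rule in both libraries in either direction.

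The members with 10 or more marker UMIs fell into 2 kinds by the marker with most UMIs, a split made after their values had been seen. *CG12057* led in 78 of 84 cells in *esg[ts]*/+ and in 36 of 73 in *esg[ts]/D30A*. *Ser8* led in 5 and 30, *CG3106* in 1 and 7, and *Crys* in none. Cells led by *Ser8* or *CG3106* were thus 7.14% (2.67 to 14.9) and 50.7% (38.7 to 62.6) of these members. In 1 and 3 cells the leading marker tied with another, and the first in the order *Ser8*, *CG12057*, *CG3106*, *Crys* was taken. The kinds were of similar depth in *esg[ts]/D30A*, with medians of 10685.5 and 13136 UMIs, and had medians of 2576.5 and 5537.5 UMIs in *esg[ts]*/+.

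Within these cells *CG12057* and the other markers ran in opposite directions in *esg[ts]/D30A*. Over its 73 cells, Spearman's rho of *CG12057* with *Ser8*, *CG3106* and *Crys* was -0.48, -0.46 and -0.55, whereas the 3 others were positively related among themselves, with rho of 0.26 to 0.47. In the 84 *esg[ts]*/+ cells the values for *CG12057* were -0.01, -0.12 and -0.28. These cells share a library and differ in depth, the marker sum was used to choose them, and the values are descriptions. *CG12057* had 164 UMIs in all in the 37 *esg[ts]/D30A* cells led by *Ser8* or *CG3106*, and 9 of the 37 had any.

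**Figure D4:**
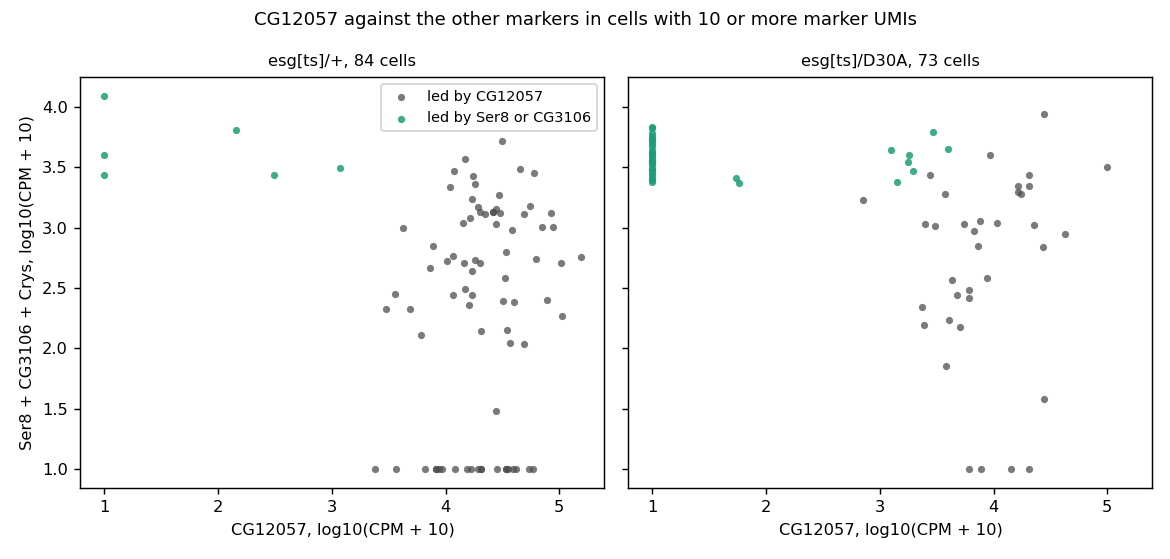
Each point is 1 member with 10 or more marker UMIs, placed by *CG12057* (horizontal) and by the sum of *Ser8*, *CG3106* and *Crys* (vertical), both as log10(CPM + 10), so that a value of 1 on an axis means no UMI. In *esg[ts]/D30A* 28 of 37 cells led by *Ser8* or *CG3106* have no *CG12057*, while in *esg[ts]*/+ 78 of 84 cells are led by *CG12057*.

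The kinds also differed in genes that had not been used to choose or split them. Of 2234 genes tested, 250 (11.2%) were at least 2-fold higher in cells led by *CG12057* in both libraries and 46 (2.06%) were at most 0.5-fold. The lysosomal alpha-mannosidase genes were among the first. *LManVI* had 1491 CPM in cells led by *CG12057* in *esg[ts]*/+ and no UMI in the 6 cells led by the others, at least 31.6-fold higher with 3 counts over those cells as the limit. In *esg[ts]/D30A* it had 3011 against 19.3 CPM, although 35.3% of its member UMIs lay in 1 cell. At least 3 *LManVI* UMIs were present in 36 of 78 and 18 of 36 cells led by *CG12057*, and in 0 of 6 and 1 of 37 cells led by the others. *LManV* had 1020 and 1040 CPM in cells led by *CG12057*, against 0 UMIs and 12.8 CPM.

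Further genes higher in cells led by *CG12057* included *fabp*, *Mal-A1* and *zetaTry*. *fabp*, which encodes a fatty acid-binding protein, had 1781 and 1970 CPM against 94.2 and 318 CPM. The maltase gene *Mal-A1* had 4707 and 4640 CPM against 487 and 1652 CPM. *zetaTry* had 345 and 387 CPM against 31.4 and 93.1 CPM. In the list of sugar enzymes, 11 of 17 tested genes were at least 2-fold higher in cells led by *CG12057*, and 3 were at most 0.5-fold. The shares over all genes were 11.2% and 2.06%. Median log2 ratios of the list were 1.94 and 1.21, beside 0.78 and 0.48 over all genes.

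Cells led by *Ser8* or *CG3106* were richest in Jonah proteases of the 99 group. *Jon99Cii* had 89120 CPM in these cells and 2250 CPM in cells led by *CG12057* in *esg[ts]*/+, and 48027 and 2624 CPM in *esg[ts]/D30A*. *Jon99Fii* had 9328 against 153 CPM and 10346 against 113 CPM. *Jon99Fi* had 8355 against 98.9 CPM and 7268 against 25.9 CPM, and 1 cell accounted for 65.2% of its UMIs among *esg[ts]/D30A* members. The Jon99 genes are near-identical in part, and the values of single copies are uncertain. In the serine protease list, 14 of 28 genes were at most 0.5-fold in cells led by *CG12057* in both libraries, beside 2.06% of all genes. Another 5 were at least 2-fold higher, beside 11.2% of all genes. The median log2 ratios were -1.18 and -1.74, beside 0.78 and 0.48 over all genes.

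The same cells had more of a carboxypeptidase, amylases and amidases. *CG17633*, of the zinc carboxypeptidase list, had 20776 against 130 CPM in *esg[ts]*/+ and 10500 against 66.8 CPM in *esg[ts]/D30A*. At least 3 UMIs of it were found in 5 of 6 and 29 of 37 of these cells, and in 10 of 78 and 8 of 36 cells led by *CG12057*. The amylase gene *Amy-p*, whose copy *Amy-d* is nearly identical, had 4271 against 814 CPM and 2156 against 258 CPM. *PGRP-SC2*, which encodes an amidase that degrades peptidoglycan, had 12485 against 425 CPM and 5733 against 542 CPM. All 3 PGRP-SC genes, of 5 PGRP genes tested, were at most 0.5-fold in cells led by *CG12057*, beside 2.06% of all genes. The values for *esg[ts]*/+ come from 6 cells only.

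The genes that marked the members as a whole were less divided. *CG8997* had log2 ratios of cells led by *CG12057* over the others of 0.41 and 0.39, *CG7953* of 0.56 and 0.44, and *mag* of 0.19 (-0.09 to 0.49) and 0.10 (-0.01 to 0.22). *Jon25Biii* was an exception, with -2.47 and -1.82, and so was *CG17571*, with -4.13 and -3.55.

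**Figure D5:**
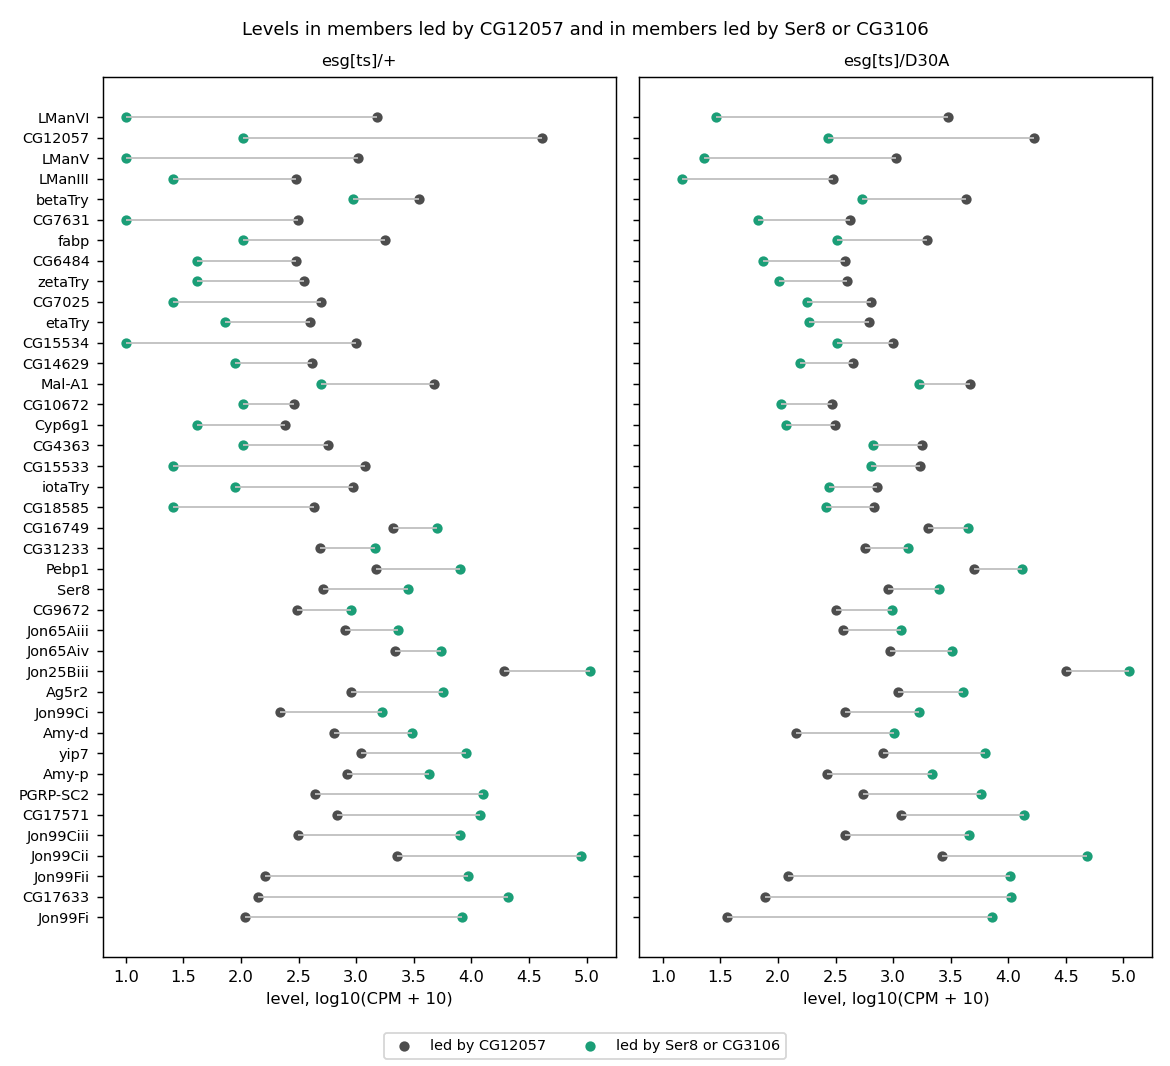
Level, as log10(CPM + 10), of the 20 genes highest in cells led by *CG12057* and the 20 highest in cells led by *Ser8* or *CG3106*, in each kind (dark for *CG12057*, green for the others) and library (panels); a value of 1 means no UMI. The mannosidase genes are lower in green, with *LManVI* and *LManV* at 1 in *esg[ts]*/+, and the Jon99 genes, *CG17633* and *PGRP-SC2* are lower in dark.

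Cells chosen in the same way on *Jon66Ci* and *Jon44E* shared genes with the second kind. They numbered 72 and 158, of which 9 and 18 were also members (2.70% and 13.0% of members, 12.5% and 11.4% of the others). These shared cells, 4 and 6 of them with 10 or more marker UMIs, were left out of both sides. That lowered the *Jon99Fii* UMIs of members from 1040 to 379 in *esg[ts]*/+ and from 6788 to 3369 in *esg[ts]/D30A*. The comparison thus lacked members rich in it, and how many were of the second kind was not counted. The cells chosen on *Jon66Ci* and *Jon44E* had 6803 and 9587 CPM of *Jon99Fii*, 14430 and 13450 CPM of *CG17633* and 37.7 and 32.7 CPM of *LManVI*. The members that remained were higher in *CG8997*, with 59244 against 8909 CPM and 81074 against 12910 CPM. *Npc2d* stood at 384 against 22.6 CPM and 1072 against 78.7 CPM, and *Gba1a* at 792 against 47.1 CPM and 1221 against 110 CPM. Of 3152 genes, 317 (10.1%) were at least 2-fold higher in members than in these cells in both libraries and 89 (2.82%) were at most 0.5-fold.

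Cells chosen on *zetaTry* and *CG31266* numbered 232 and 289, with 11 and 1 shared. They resembled the first kind in *LManVI*, at 1880 and 2451 CPM. They had little *Jon25Biii*, with 649 and 567 CPM against 23957 and 66711 CPM in members, and *CG8997* was at 1382 and 4300 CPM. Of 4575 genes, 93 (2.03%) were at least 2-fold higher in members of both libraries and 666 (14.6%) were at most 0.5-fold. Cells chosen on *Diedel3* and *LysC*, 202 and 239 with 3 and 0 shared, had lower levels of the genes highest in members. *CG8997* was at 145 and 748 CPM in them and *Jon25Biii* at 1639 and 1160 CPM, so these genes were not absent. *mag* was at 10.2 and 12.4 CPM in them, and of 4388 genes 1178 (26.8%) were at least 2-fold higher in members of both libraries and 100 (2.28%) at most 0.5-fold.

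Between the libraries, 4108 genes were tested in members, of which 402 (9.79%) were at least 2-fold higher in *esg[ts]/D30A* and 303 (7.38%) were at most 0.5-fold. Because the libraries differed in the share of cells with few marker UMIs and in the share of each kind, the comparison was repeated within cells of 10 or more marker UMIs and within those led by *CG12057*. The numbers were 435 of 3792 (11.5%) and 196 (5.17%) in the former, and 419 of 3267 (12.8%) and 146 (4.47%) in the latter. In cells led by the others, 581 of 1679 genes (34.6%) were at least 2-fold higher and 87 (5.18%) at most 0.5-fold, with 6 cells on the *esg[ts]*/+ side.

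*CG12057* was lower in *esg[ts]/D30A* members, by a log2 ratio of -1.86 (-1.89 to -1.83), and of -1.30 within cells led by it. *Ser8* had a log2 ratio of 1.48 (1.36 to 1.61) in all members, 0.84 within cells led by *CG12057* and -0.17 (-0.39 to 0.06) within cells led by the others. *CG3106* had 2.0, 2.20 and -0.33 (-0.65 to 0.01). Within the second kind both intervals included 0, but its cells were chosen by a lead of *Ser8*, *CG3106* or *Crys*, and only 6 were from *esg[ts]*/+. These ratios therefore cannot show whether the level of *Ser8* or *CG3106* differed there between libraries. The second kind was a larger share of members with 10 or more marker UMIs in *esg[ts]/D30A*. The part of that share in the ratios over all members was not tested. *Jon99Fii* had 2.42 in all members, -0.43 (-0.85 to -0.03) in cells led by *CG12057* and 0.15 (0.03 to 0.27) in cells led by the others, so that its direction turned in the first kind.

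The 12 other high genes differed between libraries to unequal degrees. *CG8997* had a log2 ratio of 0.37 (0.36 to 0.39), with 0.32 and 0.34 in the kinds, and *mag* of 0.16 (0.07 to 0.24), with 0.03 (-0.08 to 0.13) and 0.11 (-0.17 to 0.41), and -0.01 (-0.09 to 0.08) with 10 or more marker UMIs. Of the 15 genes highest in members, 14 were higher in *esg[ts]/D30A* and *CG12057* was lower. *CG17571* had 2.13 in all members, 0.79 in cells led by *CG12057* and 0.21 in the others, *CG11911* had 1.10, 0.33 and 0.91, and *Jon25Biii* had 1.5 in all members, 0.72 in cells led by *CG12057* and 0.07 in the others.

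The genes with the largest increase in *esg[ts]/D30A* were *CG31086*, *CG14499*, *CG34324*, *mt:lrRNA* and *CG34220*. *CG14499* had 101 CPM in *esg[ts]*/+ members and 1380 CPM in *esg[ts]/D30A* members, a log2 ratio of 3.77 (3.50 to 4.05), with 3.70 in cells led by *CG12057* and 2.79 in the others. In other cells it had 114.95 and 352 CPM. *CG31086* had 17.8 and 259 CPM in members, beside 7.96 and 88.1 CPM in other cells. *mt:lrRNA* had 1074 and 8908 CPM in members and 793 and 6728 CPM in other cells, and the median mitochondrial share of members was 1.39% and 3.60%. *CG34324* and *CG34220* rose from 44.1 and 75.6 CPM to 424 and 511 CPM in members, and from 123 and 195 CPM to 10668 and 8597 CPM in other cells. All 5 genes were thus higher in other cells of *esg[ts]/D30A* as well, and the part of that in the members' values was not tested. Within cells led by *CG12057* the log2 ratios were 3.80 for *CG31086*, 6.74 for *CG34324*, 2.93 for *mt:lrRNA* and 4.76 for *CG34220*, that of *CG34324* with 2 UMIs on the control side (4.86 to 9.79).

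The genes with the largest decrease were *CG6283*, *CG18404*, *CG9682*, *CG43774* and *thetaTry*. *thetaTry*, a trypsin gene, had 357 CPM in *esg[ts]*/+ members and 43.1 CPM in *esg[ts]/D30A* members, a log2 ratio of -3.05. In cells with 10 or more marker UMIs it had 49.3 and 22.9 CPM and a ratio of -1.11 (-1.81 to -0.43). *CG6283* likewise went from a ratio of -5.09 in all members to -1.86 in cells with 10 or more, and its level in *esg[ts]*/+ from 380 to 24.1 CPM. In cells led by *CG12057* the ratios were -1.17 for *thetaTry* and -1.002 (-2.51 to 0.34) for *CG6283*. *CG18404* had -2.83 (-3.47 to -2.24) in the deeper cells. In *esg[ts]*/+, members with 3 to 9 marker UMIs had 1663 CPM of *thetaTry* and 4296 CPM of *CG18404*, close to the 1544 and 4810 CPM of other cells.

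Heat shock genes were lower in *esg[ts]/D30A* members. Of 8 genes tested, 8 were at most 0.5-fold, with a median log2 ratio of -1.55 beside -0.01 over all genes, and the same 8 of 8 held in cells with 10 or more marker UMIs and in cells led by *CG12057*, with medians of -1.69 and -2.52. *Hsp26* had 667 CPM in *esg[ts]*/+ members and 176 CPM in *esg[ts]/D30A* members, beside 656 and 564 CPM in other cells. In cells led by *Ser8* or *CG3106* the direction was the opposite, with 31.4 and 241 CPM, but these rest on 6 cells in *esg[ts]*/+, and 48.2% of the *Hsp26* UMIs of *esg[ts]/D30A* members lay in 1 cell. Of 83 ribosomal protein genes, 0 were at least 2-fold higher and 6 at most 0.5-fold, with a median of -0.66.

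Among digestive genes, 9 of 28 serine protease genes were at least 2-fold higher in *esg[ts]/D30A* members and 4 at most 0.5-fold, beside 9.79% and 7.38% of all genes. Within cells led by *CG12057* these were 2 and 4 of 24, beside 12.8% and 4.47%. Of 17 sugar enzyme genes, none was called in either direction in all members or in those with 10 or more marker UMIs, whereas 1 and 2 were called in cells led by *CG12057*. Of 12 lipid-handling genes, 4 were higher and none lower, *Npc2d* among them with 1.38 (1.22 to 1.54) in all members and 1.30 in cells led by *CG12057*. Antimicrobial peptide genes were almost absent. *Def* had 1 UMI in the members of each library, *CecC* had 1 in *esg[ts]*/+ members and none in the others, and no gene of this list reached 20 UMIs over the members.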

How the data were processed

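The deposited matrices, 1 per library, list whole-number UMI counts for each gene in each barcode. The authors produced them with Cell Ranger (3.0 according to the submitters' processing notes, 3.0.2 in the file headers). Their notes also name Seurat 3.1.1. The genome build is not given in the sources used here, and positions come from BDGP6.54 (Ensembl) by FlyBase identifier, found for 17599 of 17737 genes and for 150 of 152 named genes. The rule, the markers, the gene lists and the genes to compare were chosen with earlier results of these data known.

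For a group of cells, the UMIs of each gene were added up and scaled to CPM, with exact intervals from the Poisson distribution. Log2 ratios were given exact conditional intervals, shares Clopper-Pearson intervals, and differences of shares Newcombe intervals. Genes with at least 20 UMIs were called at 2-fold or more, or 0.5-fold or less, in both libraries where members are compared with other cells. Progenitor barcodes had 3 or more UMIs of *esg*, *N* and *Dl*, and *pros* barcodes 3 or more of *pros*. Named genes were the 4 markers, the 15 highest and 5 lowest against other cells and the 5 highest and 5 lowest between libraries (at least 200 UMIs), the 3 most abundant of each list, and the cell type markers. The 20 highest genes of each kind of member, and a few further list genes, were named after values had been seen. Doublets were not called. The limits on progenitor and *pros* UMIs do not remove doublets of enterocytes with each other, and the part of these in the members was not tested. An alternative with a limit of 3500 genes left out the 5 *esg[ts]/D30A* members above it, and also changed the pooled share and with it the other members. Thinning used 1 random draw. Ratios were checked on simulated counts. Alternatives were other gene, mitochondrial, marker and count limits, each marker left out, and means over cells. Calculations ran under Python 3.11.15 with scipy 1.17.1, numpy 2.4.6, statsmodels 0.14.6, pandas 2.3.3 and matplotlib 3.10.9.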

Additional observations from a re-analysis of the deposited data

How the results depend on the processing

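The number of members followed the limits set. With limits of 500 genes and 10% mitochondrial UMIs there were 72 control members and 76 of *esg[ts]/D30A*. There were 122 in *esg[ts]*/+ at 5 marker UMIs, 84 and 73 at 10, 80 in *esg[ts]/D30A* at a fold of 5, 206 in *esg[ts]*/+ with the pooled share of each library, 88 in *esg[ts]/D30A* without *Ser8*, 61 in *esg[ts]*/+ without *CG12057* and 127 in *esg[ts]*/+ with 2 or more markers. The difference in share was then -0.44, -0.61, -0.35, -3.70, -0.45, 2.12 and -0.54 points with the gene limit, 5 UMIs, 10 UMIs, the fold of 5, the library share, without *CG12057* and with 2 markers. With every other alternative it lay between -5.47 points (without *Ser8*) and -4.27 points (at most 3500 genes). The alternative of 2 or more markers, and the splits by leading marker, were chosen after seeing the data. Of genes against other cells, 1265 were lower with 5 UMIs per gene, 80 were higher with means over cells, and 1740 were lower against all other kept barcodes. Only 47 of the 189 genes higher in the main setting were also called with means over cells. Most of those 189 calls thus depended on summing UMIs over cells. Between libraries, 178 were lower with the gene limit and 196 at 10 marker UMIs. They numbered 213 higher and 150 lower at 50 UMIs per gene, 885 and 757 at 5, and 620 and 622 with means over cells. With the limit of 3500 genes 278 were higher and 391 lower, so that the balance turned. That limit applied to all barcodes and so also changed the pooled share. It left 270 control members and 98 of *esg[ts]/D30A*. The part of the 5 *esg[ts]/D30A* members above the limit in the turn was not tested. Of 631 single-gene values 623 kept their sign, including all 348 against other cells, though the limits on UMIs per gene cannot move a ratio. In cells led by the other markers *Ser8* turned to -0.17, *CG12057* to 1.48, *CG3106* to -0.33 and *Hsp26* to 2.94, and in cells led by *CG12057* *Jon99Fii* turned to -0.43. *mag*, not called, fell to -0.01 with the gene limit and at 10 UMIs and to -0.22 with the library share. No paired analysis was possible because each genotype had 1 library. Depth limits *Crys* and *CG3106* most, with 108 and 209 UMIs in *esg[ts]*/+ members, and values of the second kind in *esg[ts]*/+ rest on 6 cells.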
